A study of Mus musculus with 16 samples.

Results

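Arntl, Npas2, Nfil3, Clock and Cry1 are the genes of the mammalian circadian clock whose transcripts peak near Arntl (also called Bmal1) in the daily cycle. They were taken by symbol and make up 5 of the 9866 genes that could be named in the table. All 5 passed the filter for low values, a log2 intensity above 4 on at least 4 arrays, as did 7276 genes in all. Total RNA of whole mouse lung from a model of allergic asthma was hybridised to 16 Affymetrix arrays, 4 in each of 4 groups. The groups were BALB/c mice given phosphate-buffered saline (PBS), BALB/c mice given ovalbumin (OVA, an egg protein used as allergen), and a line titled BALB-RAG given PBS or OVA. Lungs were taken on day 22, which was 1 day after exposure ended. Further alleles, age and time of day of harvest are not given in the sources used here, nor whether an array holds 1 animal or a pool.

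The clock is a feedback loop in most cells of the body, the lung included. The proteins of Arntl and of its partners Clock and Npas2 bind E-box elements in DNA and switch on the Per, Cry, Nr1d1, Nr1d2 and Dbp genes. PER and CRY proteins then block that pair, while NR1D1 and NR1D2 (Rev-erb alpha and beta) repress Arntl, Npas2, Clock, Nfil3 and Cry1 and the ROR proteins activate them, so transcripts of the Arntl set are high when those of Dbp and Nr1d1 are low. NFIL3, a repressor that also acts in lymphocytes and in the control of type 2 cytokines, competes with DBP, TEF and HLF for D-box elements.

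The elements through which these proteins act are short, and 4 stretches around them show what lies near the starts of 3 of the 5 genes. RefSeq promoter windows of GRCm38.p6, 300 bases from 250 before to 50 after a start, were searched on both strands for TAGGTCA and TGGGTCA (Rev-erb and ROR), CACGTG (E-box), and TTATGTAA and TTACGTAA (D-box). All 5 genes matched a window, with 3 windows for Clock, 2 for Arntl and 1 for each other gene. Each stretch is written 5′ to 3′ on the strand of the gene, with the matched letters in capitals.

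Arntl, TAGGTCA, chr7:113207530-113207559, plus strand: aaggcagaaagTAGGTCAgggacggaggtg
Arntl, variant TAGGTTA, chr7:113207494-113207523, plus strand: tggtcggaaagTAGGTTAgtggtgcgacat
Nfil3, TAGGTCA on the other strand, chr13:52981033-52981062, minus strand: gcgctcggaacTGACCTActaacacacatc
Cry1, CACGTG, chr10:85185096-85185125, minus strand: gtgccggtggtCACGTGgggtgcatgccgc

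The Arntl TAGGTCA begins at position 31 after the start in 1 of its windows, the Nfil3 match at -12 and the Cry1 E-box at -60. TAGGTCA occurs in 2.61% of all 32851 windows, TGGGTCA in 3.98%, CACGTG in 7.15%, TTATGTAA in 0.938% and TTACGTAA in 0.119%. The variant TAGGTTA, which differs from TAGGTCA in 1 letter and was searched for after the Arntl sequence had been read, occurs in 1.44%. No window of Npas2 or Clock held any of these letters. A match is a run of letters and no evidence of binding, and the arrays measured none.

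Arrays had like median intensities, 18.2 to 20.5, and the transcripts of the surfactant protein Sftpc and of 6 other lung epithelial genes were high in every group (mean of the list 10.41 to 11.00 on the log2 scale). Mice without a working Rag gene lack mature T and B cells. The mean of 8 T cell genes was nevertheless 4.47 to 4.74 on PBS arrays labelled BALB-RAG, near the 4.46 to 4.97 of BALB/c. On OVA arrays labelled BALB-RAG it reached 5.34 on replicate 2 and 3.65 to 3.72 on the other 3, so that replicate stood apart. Icos was under log2 4 on all arrays in 3 of the 4 groups, BALB/c after OVA being the exception. Groups were kept as titled. Replicate numbers marked a second split: deviations from group means correlated with a median of 0.3 between arrays of the same number in different groups, 0.314 between arrays of the same set (replicates 1 and 2, or 3 and 4) with another number, and -0.316 across sets. What the sets are was not stated, so comparisons of the 5 genes are also given within sets. Other genes are given over all arrays unless a set is named. In whole tissue, fewer cells of a type and less RNA per cell cannot be told apart.

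Across the 16 arrays Arntl, Npas2 and Nfil3 varied widely, and Clock and Cry1 less so. The log2 range was 3.95 for Arntl, 3.12 for Npas2, 3.05 for Nfil3, 1.56 for Cry1 and 1.51 for Clock. Of all genes tested, 97.42% had a smaller range than Arntl, 94.87% than Npas2, 94.41% than Nfil3, 70.30% than Cry1 and 68.43% than Clock. The highest array of each of the 5 genes was a BALB/c array after PBS.

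**Figure D1:**
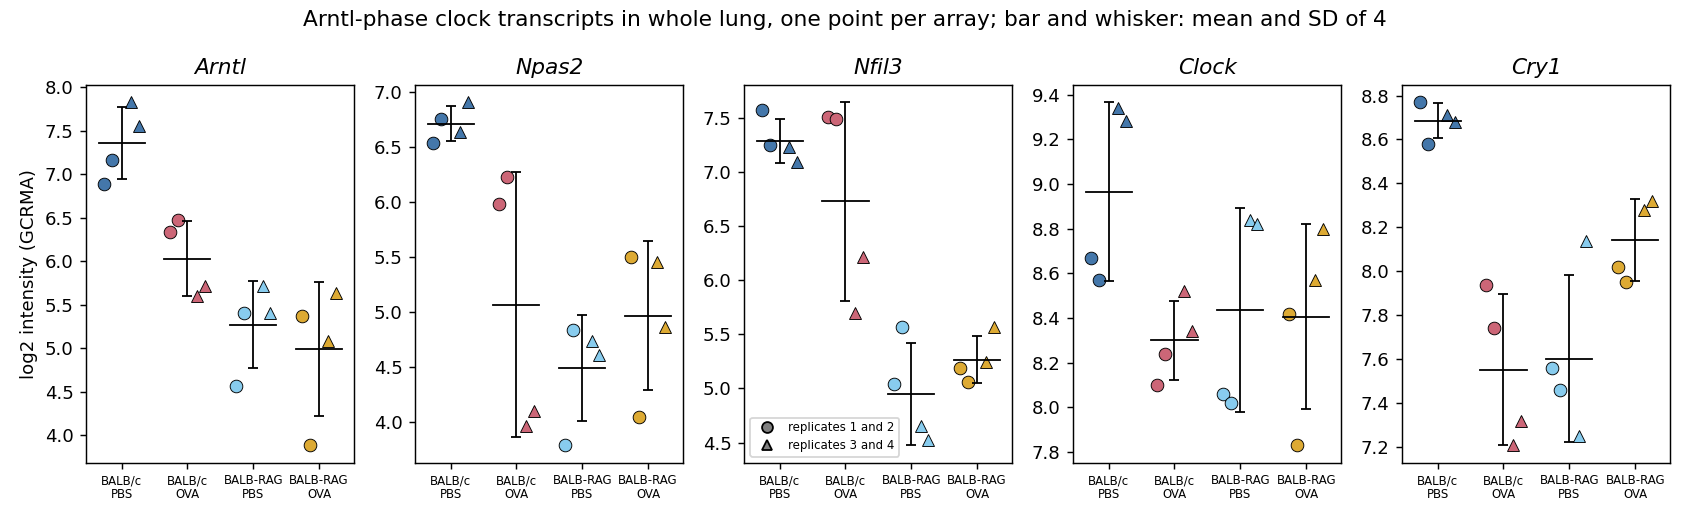
Log2 intensity (vertical axes, each with its own range) of the 5 genes on each array in the 4 groups; circles are replicates 1 and 2, triangles replicates 3 and 4, and bars and whiskers are the mean and SD of 4 arrays. All 4 BALB/c arrays after PBS lie above all other arrays for Arntl, Npas2 and Cry1, and in BALB/c after OVA the triangles lie apart from the circles.

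Arntl encodes the obligate partner of CLOCK and NPAS2 in the activating complex. Its log2 intensity in BALB/c after PBS was 6.89, 7.16, 7.83 and 7.55 on replicates 1 to 4 (mean 7.36 ± 0.42, SD, n = 4). In BALB/c after OVA it was 6.33, 6.47, 5.60 and 5.72 (6.03 ± 0.43). All 4 OVA arrays lay below all 4 PBS arrays, and among the OVA arrays replicates 3 and 4 were the lower pair. Arrays labelled BALB-RAG read 4.56, 5.40, 5.72 and 5.40 after PBS (5.27 ± 0.50), and 5.37, 3.88, 5.08 and 5.63 after OVA (4.99 ± 0.77). These 8 arrays overlapped between exposures and lay below every BALB/c array after PBS. The value of 3.88, on replicate 2 after OVA, is under the background level of log2 4. The order of the means was thus BALB/c after PBS, BALB/c after OVA, BALB-RAG after PBS and BALB-RAG after OVA, and each of the last 3 groups overlapped its neighbour in that order.

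Npas2, a paralogue of Clock that can take its place beside ARNTL, was measured at 6.54, 6.76, 6.64 and 6.91 in BALB/c after PBS (6.71 ± 0.16). After OVA in the same line it was 5.98, 6.23, 3.97 and 4.10 (5.07 ± 1.20). The OVA arrays fell into 2 pairs: replicates 1 and 2 were just under the PBS arrays, and replicates 3 and 4 were at the background level. Arrays labelled BALB-RAG read 3.79, 4.84, 4.74 and 4.61 after PBS (4.49 ± 0.48) and 5.50, 4.05, 5.46 and 4.87 after OVA (4.97 ± 0.68). Below BALB/c after PBS, the other 3 groups overlapped one another. A dimmer probe set of Npas2, over log2 4 on 6 of 16 arrays, correlated at 0.655 with the one used and was also highest in BALB/c after PBS (mean 4.60, against 3.83 in BALB/c after OVA and 3.18 and 3.77 in the other groups).

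Clock encodes the partner most often found with ARNTL. It read 8.67, 8.57, 9.34 and 9.28 in BALB/c after PBS (8.97 ± 0.40) and 8.10, 8.24, 8.52 and 8.34 after OVA (8.30 ± 0.18). The OVA arrays all lay below the PBS arrays, although the gap between 8.52 and 8.57 was narrow. It read, on arrays labelled BALB-RAG, 8.06, 8.02, 8.84 and 8.82 after PBS (8.43 ± 0.46) and 8.42, 7.83, 8.57 and 8.80 after OVA (8.41 ± 0.42). Replicates 3 and 4 were above replicates 1 and 2 in every group. The 3 groups other than BALB/c after PBS overlapped one another, and those labelled BALB-RAG overlapped BALB/c after PBS as well. A second probe set of Clock followed the one used at a correlation of 0.84 and another at 0.354, and both had their lowest mean in BALB/c after OVA, 6.46 and 6.15.

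Cry1 encodes the strongest repressor of the loop. In BALB/c after PBS it read 8.77, 8.58, 8.71 and 8.68 (8.68 ± 0.08), the tightest of the 20 sets of 4 values. After OVA in BALB/c it read 7.94, 7.74, 7.21 and 7.32 (7.55 ± 0.35), below all 4 PBS arrays. The arrays labelled BALB-RAG gave 7.56, 7.46, 7.25 and 8.14 after PBS (7.60 ± 0.38) and 8.02, 7.95, 8.28 and 8.32 after OVA (8.14 ± 0.18). BALB-RAG after OVA was therefore second in order, overlapping BALB-RAG after PBS on 1 array of that group and just clear of BALB/c after OVA (lowest 7.95 against highest 7.94). BALB-RAG after PBS and BALB/c after OVA, the lowest groups, overlapped.

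Nfil3, the D-box repressor, read 7.57, 7.25, 7.23 and 7.09 in BALB/c after PBS (7.29 ± 0.20). In BALB/c after OVA it read 7.51, 7.49, 5.70 and 6.21 (6.73 ± 0.91), so replicates 1 and 2 lay within the range of the PBS arrays and replicates 3 and 4 below it. Arrays labelled BALB-RAG gave 5.04, 5.57, 4.65 and 4.52 after PBS (4.95 ± 0.47) and 5.19, 5.06, 5.24 and 5.57 after OVA (5.27 ± 0.21). All 8 arrays labelled BALB-RAG lay below the 8 BALB/c arrays, and overlapped between exposures.

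The response of BALB/c mice to OVA, against PBS, addresses how the allergen changes the lung of a mouse with a full immune system. Arntl, Npas2 and Cry1 were lower after OVA, by 2.51-, 3.12- and 2.19-fold. In log2 the differences were -1.33 ± 0.35 for Arntl (SE, n = 4 per group, adjusted p = 0.0174), -1.64 ± 0.47 for Npas2 (0.0251) and -1.13 ± 0.19 for Cry1 (0.00084), by limma with Benjamini-Hochberg adjustment over all 7276 genes. Clock (-0.66 ± 0.25, adjusted p = 0.0908) and Nfil3 (-0.56 ± 0.35, adjusted p = 0.334) did not pass 0.05 in limma. With the replicate number as a block the call of Clock changed (-0.66 ± 0.14, adjusted p = 0.00458, limma). Thus 3 of the 5 were called lower, where 6.78% of all tested genes were called lower and 15.5% in either direction. Their median difference was -1.13, against 0.00 over all genes tested. Arntl, Npas2, Clock and Cry1 had OVA arrays entirely below PBS arrays, which 9.24% of all tested genes had.

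**Figure D2:**
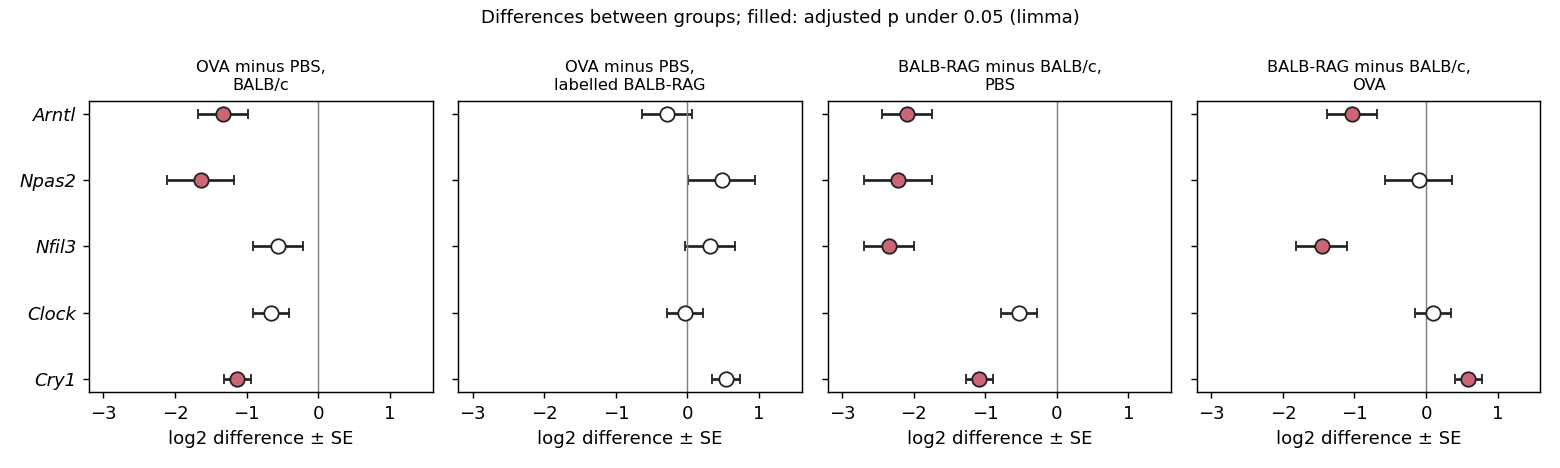
Log2 difference (horizontal axes) with its SE for the 5 genes in the comparisons of OVA with PBS in each line and of the lines after each exposure, n = 4 arrays per group; filled points have an adjusted p under 0.05 by limma. Arntl, Npas2 and Cry1 are filled left of 0 in BALB/c after OVA, no point is filled on the arrays labelled BALB-RAG, and Cry1 is right of 0 between the lines after OVA (0.59).

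The response in BALB/c was not alike in the sets of replicates. Within replicates 1 and 2 only Cry1 was called of the 5 (-0.83 ± 0.14, adjusted p = 0.0096, limma), while Arntl read -0.63 ± 0.48, Npas2 -0.54 ± 0.50, Clock -0.45 ± 0.20 and Nfil3 0.09 ± 0.20. Within replicates 3 and 4 all 5 were called lower: Npas2 by -2.74 ± 0.23 (adjusted p = 0.00126, limma), Arntl -2.03 ± 0.23, Cry1 -1.43 ± 0.27, Nfil3 -1.21 ± 0.22 and Clock -0.88 ± 0.16. The difference between the sets in the size of the response was not tested. With replicates 3 and 4 of BALB/c after OVA left out together, Arntl read -0.96 (adjusted p = 0.151, limma), Npas2 -0.61 (0.294), Clock -0.79 (0.113) and Nfil3 0.21 (0.618), and Cry1 alone stayed called at -0.84 (0.0125). Leaving out replicate 3 of BALB/c after PBS also left Cry1 as the only call, with Npas2 at an adjusted p of 0.0513 and Arntl at 0.06 in limma. Npas2 lost its call in 4 of 16 such fits, also without replicate 4 after PBS (0.0668) and without replicate 3 or 4 after OVA (0.0754 and 0.0758), and with only the 2 groups fitted (0.0649). Clock was called with the mean of its probe sets (-0.64 ± 0.16, adjusted p = 0.0118, limma).

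**Figure D3:**
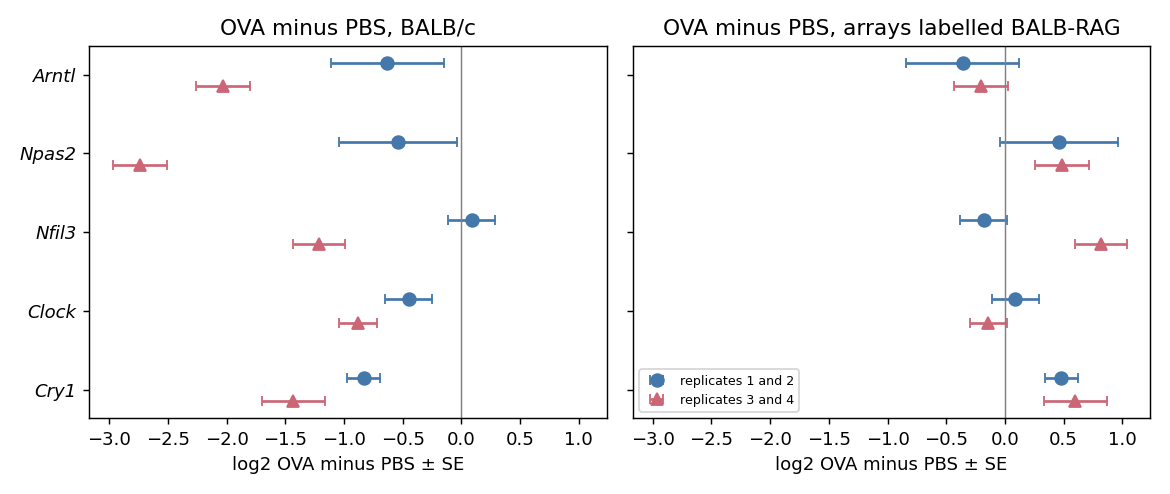
Log2 difference of OVA minus PBS with its SE (horizontal axes) for the 5 genes within replicates 1 and 2 (circles) and within replicates 3 and 4 (triangles), 2 arrays per group in each, for BALB/c (left) and the arrays labelled BALB-RAG (right). In BALB/c each triangle lies left of its circle, with Npas2 at -2.74 against -0.54; on the arrays labelled BALB-RAG no difference was called in either set.

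The same arrays stood apart in some genes of the opposite phase. Replicates 3 and 4 minus replicates 1 and 2 of BALB/c after OVA gave 3.43 for Nr1d1, 2.63 for Nr1d2 and 2.58 for Dbp. Tef gave 1.42, Cry2 1.04 and Per3 0.88, while Per2 gave 0.24, Ciart -0.06, Bhlhe40 -0.23 and Hlf -0.50. Dbp, an activator at D-boxes, read 4.29 and 4.34 on replicates 1 and 2 of BALB/c after OVA and 6.97 and 6.81 on replicates 3 and 4, against 3.26 to 4.40 in BALB/c after PBS. Nr1d2 read 8.24 and 8.47, then 11.09 and 10.88, against 7.92 to 8.69. Nr1d1 read 2.39 and 3.06, then 6.20 and 6.12, against 2.64 to 3.63, all of which are under background. On those 2 OVA arrays Nr1d2 and Nr1d1 thus lay within the range of the arrays labelled BALB-RAG, as Arntl did. Npas2 lay toward the lower end of its range there, and Dbp just below its own (lowest 7.04). Nfil3 stayed above all arrays labelled BALB-RAG, at 5.70 and 6.21 against 4.52 to 5.57. Hlf stayed far below them, at 4.11 and 4.05 against 6.14 to 7.10. Within replicates 3 and 4 Nr1d2 was higher after OVA by 2.51 ± 0.28 (adjusted p = 0.00387, limma) and Dbp at least 7.4-fold (adjusted p = 0.00211, limma), a bound that sets its PBS arrays, 2 of 2 under background, to log2 4. Within replicates 1 and 2 the differences were 0.23 ± 0.23 and -0.07 ± 0.39. The time of day at which the sets or groups were harvested was not given, so its part and that of exposure or line cannot be told apart.

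Of the 12 genes listed for the phase opposite to Arntl, 10 were tested. In BALB/c 2 of the 10 rose after OVA (8.73% of all tested genes did), Bhlhe40, a repressor at E-boxes (1.50 ± 0.21, adjusted p = 0.000182, limma), and Per3 (0.95 ± 0.26), and 2 fell, Ciart (-0.99 ± 0.26), a repressor of the loop, and Per2 (-0.69 ± 0.22). The median of the 10 was 0.51. Per3 read 0.15 ± 0.25 within replicates 1 and 2 (adjusted p = 0.755, limma) and 1.75 ± 0.20 within replicates 3 and 4 (0.0042). Without replicates 3 and 4 of BALB/c after OVA it was not called (0.51 ± 0.26, adjusted p = 0.215, limma). Per2 was alike in the sets (-0.69 ± 0.24 and -0.70 ± 0.28) and called in neither. Among 11 tested regulators outside the loops 2 fell, where 6.78% of all tested genes fell. They were the ROR gene Rora, an activator of Arntl (-0.54 ± 0.13, adjusted p = 0.0109, limma), and Csnk1e, a kinase of PER proteins (-0.36 ± 0.11). Among 11 tested output genes 3 fell, Usp2, a deubiquitinase (at least 1.99-fold, with 3 of 4 OVA arrays under background), Tsc22d3 (-1.30 ± 0.22) and Herpud1 (-0.44 ± 0.14), and Nampt, which makes NAD, rose (0.62 ± 0.14). Against the same shares of 6.78% lower and 8.73% higher, of 12 tested genes of glucocorticoid and fasting responses 4 fell, among them Pdk4 (-2.12 ± 0.32) and Tsc22d3, and Lcn2 rose (3.37 ± 0.44). Of 8 tested genes of cytokine signals linked to Nfil3, 2 rose, Irf4, at least 4.7-fold with 3 of 4 PBS arrays under background, and Id2 (0.91 ± 0.18), and none fell.

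Markers of other cells moved with this comparison. The mean of 6 macrophage genes was 7.68 to 8.76 after PBS and 10.06 to 10.84 after OVA in BALB/c, that of 8 T cell genes 4.46 to 4.97 and 5.50 to 6.62, and that of 7 B cell genes 6.24 to 6.58 and 7.19 to 8.28. The mean of 6 endothelial genes was 10.36 to 10.49 and 9.45 to 10.15, that of the 2 adipose genes 6.96 to 9.46 and 5.61 to 7.54, and that of 3 heart muscle genes 8.45 to 9.02 and 7.16 to 8.22. The part of these cells in the lower Arntl, Npas2 and Cry1 was not tested. Marker levels also moved with the split of the OVA group. Replicates 3 and 4 were below replicates 1 and 2 in macrophage (10.40 and 10.06 against 10.80 and 10.84), T cell (5.50 and 5.85 against 6.62 and 6.09), B cell (7.19 and 7.63 against 8.28 and 8.04) and adipose genes (5.61 and 6.28 against 7.01 and 7.54). They were above them in NK cell (7.18 and 7.95 against 6.21 and 5.43), endothelial (9.99 and 10.15 against 9.63 and 9.45) and heart muscle genes (7.56 and 8.22 against 7.19 and 7.16). In BALB/c after PBS replicates 3 and 4 were also the lower pair in macrophage, T cell, B cell and adipose genes. Macrophage genes read 7.95 and 7.68 against 8.63 and 8.76, and T cell genes 4.46 and 4.66 against 4.97 and 4.80. B cell genes read 6.24 and 6.24 against 6.55 and 6.58, and adipose genes 7.67 and 6.96 against 8.07 and 9.46. NK cell genes were lower too (5.48 and 5.07 against 6.55 and 6.38), and endothelial and heart muscle genes overlapped between the sets. The mean of 4 neutrophil genes was also lower on replicates 3 and 4 after PBS (6.59 and 6.29 against 8.03 and 8.61). In BALB/c after OVA it was higher on replicates 3 and 4 (7.36 and 6.93 against 6.77 and 6.82).

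On the arrays labelled BALB-RAG, which ask what the allergen does without mature lymphocytes as far as the title holds, none of the 5 was called after OVA. Cry1 differed most, by 0.54 ± 0.19 (SE; adjusted p = 0.405 and unadjusted p = 0.0129, limma, 4 arrays per group). Npas2 read 0.48 ± 0.47, Nfil3 0.32 ± 0.35, Clock -0.03 ± 0.25 and Arntl -0.28 ± 0.35, with adjusted p of 0.901 or more in limma. In this comparison 0.165% of all tested genes were called in either direction, a count of 12 that single arrays moved between 6 and 42. The exposures overlapped for all 5, as they did for all tested genes but 4.62%. Within replicates 1 and 2 and within replicates 3 and 4 none was called, with Cry1 at 0.48 ± 0.14 and 0.60 ± 0.27. Without replicate 2 after OVA, the array high in T and B cell transcripts, Arntl turned to 0.09 ± 0.30 and Clock to 0.16 ± 0.25. None of the 10 genes of the opposite phase, the 11 regulators or the 11 output genes was called, and 2 of the 12 glucocorticoid and fasting genes rose, Angptl4 (2.28 ± 0.34) and Fam107a (2.12 ± 0.27).

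The difference between the responses of the lines was called for Cry1. Its response labelled BALB-RAG exceeded that in BALB/c by 1.67 ± 0.27 (SE; adjusted p = 0.00127, limma, 4 arrays per group), with means moving by 0.54 and -1.13. For Npas2 the difference was 2.12 ± 0.66 (adjusted p = 0.0588, limma), for Arntl 1.05 ± 0.50 (0.242), for Nfil3 0.88 ± 0.49 (0.332) and for Clock 0.64 ± 0.36 (0.336). All 5 differences were positive, with 1 called, where 3.86% of all tested genes were called higher and 8.49% in either direction. Without replicate 2 labelled BALB-RAG after OVA, Arntl (1.42 ± 0.41, adjusted p = 0.0463, limma) and Npas2 (2.43 ± 0.65, 0.0327) were called as well. Within replicates 1 and 2 Cry1 read 1.31 ± 0.19 and within replicates 3 and 4 2.03 ± 0.39, both called (adjusted p = 0.0117 and 0.0447, limma). Per2 (1.39 ± 0.31) and Ciart (1.27 ± 0.37) of the opposite phase were called higher in this difference and Bhlhe40 lower (-1.44 ± 0.30), and 4.63% of all tested genes were called lower. Of 11 regulators Rora (1.08 ± 0.19) and Csnk1e (0.57 ± 0.15) were called higher, as were 4 of 11 output genes and 6 of 12 glucocorticoid and fasting genes, among them Tsc22d3 (2.43 ± 0.32). Of the markers, 5 of 6 macrophage genes (median -2.04), 4 of 8 T cell genes (-1.71) and 1 of 7 B cell genes (-1.76) were called lower, and their part in the difference of Cry1 was not tested.

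Between the lines after PBS, without allergen, Nfil3, Npas2, Arntl and Cry1 were lower in the line labelled BALB-RAG, by 5.06-, 4.66-, 4.25- and 2.12-fold. In log2 Nfil3 differed by -2.34 ± 0.35 (SE; adjusted p = 0.00152, limma, 4 arrays per group), Npas2 by -2.22 ± 0.47 (0.0139), Arntl by -2.09 ± 0.35 (0.0038) and Cry1 by -1.08 ± 0.19 (0.00522). Clock read -0.53 ± 0.25 (adjusted p = 0.317, limma) and overlapped, and was called with the replicate number as a block (-0.53 ± 0.14, adjusted p = 0.0376, limma). The other probe sets of Clock differed less, with means of 6.79 and 6.82 labelled BALB-RAG against 6.99 and 6.88 in BALB/c. Thus 4 of the 5 were called lower, where 1.94% of all tested genes were called lower and 3.9% in either direction. The same 4 did not overlap between the groups, which held in that direction for 5.44% of all tested genes. The median of the 5 was -2.09, against -0.01 over all genes tested.

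Within replicates 1 and 2 the values were -2.10 ± 0.20 for Nfil3, -2.33 ± 0.50 for Npas2, -2.04 ± 0.48 for Arntl and -1.17 ± 0.14 for Cry1, and of these Nfil3 and Cry1 were called (adjusted p = 0.00753 and 0.0125, limma), with Npas2 at 0.0558 and Arntl at 0.0691. Within replicates 3 and 4 they were -2.58 ± 0.22, -2.10 ± 0.23, -2.13 ± 0.23 and -1.0 ± 0.27, all called except Cry1 (adjusted p = 0.202, limma). The sizes were thus close in both sets. Leaving out each array in turn kept Arntl between -2.24 and -1.85 and Nfil3 between -2.55 and -2.20, both called in 16 of 16 fits, as was Cry1 between -1.26 and -0.97. Npas2 lay between -2.33 and -1.98 and was called in 15 of 16, with an adjusted p of 0.0524 in limma without replicate 1 labelled BALB-RAG after PBS.

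Of the 10 tested genes of the opposite phase 6 were higher on PBS arrays labelled BALB-RAG, where 1.97% of all tested genes were, and none was lower. Dbp read 7.04 to 8.50, against 3.26 to 4.40 in BALB/c, where 2 of 4 arrays were under background, and was at least 11.3-fold higher (adjusted p = 0.00172, limma). Nr1d2 differed by 2.71 ± 0.52, Hlf by 1.98 ± 0.25, Per3 by 1.39 ± 0.26 and Tef by 1.26 ± 0.31. Nr1d1 read 6.05 to 6.97 against values under background on all 4 BALB/c arrays, at least 5.27-fold higher (adjusted p = 0.0127, limma). Nr1d1 and Nr1d2 encode repressors of Arntl, Dbp, Hlf and Tef D-box activators, and Per3 a PER protein. None of the 11 regulators was called. Of the output genes 3 of 11 were lower, where 1.94% of all tested genes were: Cdkn1a, a cell cycle inhibitor (-2.08 ± 0.27), Tsc22d3 (-0.84 ± 0.22) and Hspa8, a chaperone (-0.60 ± 0.13), and of the glucocorticoid and fasting genes 5 of 12 were lower, among them Cdkn1a, Fam107a (-1.97 ± 0.27) and Angptl4 (-1.76 ± 0.34).

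Markers of other tissues and cells were also compared between the lines. The mean of the adipose genes Fabp4 and Adipoq was 9.03 to 11.53 on PBS arrays labelled BALB-RAG and 6.96 to 9.46 in BALB/c, with 2 of 2 called higher (2.67 ± 0.61 and 2.52 ± 0.65), and that of 3 heart muscle genes 8.70 to 11.55 against 8.45 to 9.02, with 0 of 3 called. The mean of 7 B cell genes was 5.11 to 5.62 against 6.24 to 6.58, with 0 of 7 called. That of 3 NK cell genes was 3.93 to 4.84 against 5.07 to 6.55. Of these, 1 of 3 was called lower, where 1.94% of all tested genes were. Blk and Ncr1 were each under log2 4 on all 4 arrays labelled BALB-RAG, but also on 3 of 4 in BALB/c. The part of these tissues and cells in the lower levels of the 4 clock genes was not tested.

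Between the lines after OVA the 5 genes divided. Nfil3 (-1.46 ± 0.35, SE, n = 4 per group, adjusted p = 0.00559, limma) and Arntl (-1.04 ± 0.35, 0.0432) were lower on the arrays labelled BALB-RAG, by 2.75- and 2.05-fold, and Cry1 was higher by 1.5-fold (0.59 ± 0.19, 0.0354). Npas2 (-0.10 ± 0.47, adjusted p = 0.92, limma) and Clock (0.10 ± 0.25, 0.83) were not called. In this comparison 23.8% of all tested genes were called, 12.1% lower and 11.6% higher. Nfil3 and Cry1 did not overlap between the groups, Arntl did, and 27% of all tested genes did not overlap in either direction.

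These values differed between the sets of replicates. Within replicates 1 and 2 Nfil3 (-2.37 ± 0.20) and Arntl (-1.77 ± 0.48) were called (adjusted p = 0.000585 and 0.0344, limma) and Npas2 read -1.33 ± 0.50. Within replicates 3 and 4 Nfil3 read -0.55 ± 0.22 and Arntl -0.30 ± 0.23, neither called, and Npas2 turned to 1.13 ± 0.23 and was called (adjusted p = 0.0256, limma). Cry1 read 0.14 ± 0.14 in the first set and 1.03 ± 0.27 in the second, with adjusted p of 0.481 and 0.0599 in limma. Leaving out each array in turn kept the call of Nfil3 in 16 of 16 fits, of Cry1 in 11 and of Arntl in 8. Arntl lost its call without replicate 2 labelled BALB-RAG after OVA (-0.67 ± 0.30, adjusted p = 0.132, limma), replicate 3 of that group, replicates 1 or 2 of BALB/c after OVA, or replicates 2 or 4 of either PBS group. Cry1 lost its call without replicate 3 (0.48, adjusted p = 0.103, limma) or 4 of BALB/c after OVA, or replicates 1, 3 or 4 labelled BALB-RAG after OVA. With replicates 3 and 4 of BALB/c after OVA left out together, Npas2 was called lower (-1.13 ± 0.37, adjusted p = 0.036, limma) and Cry1 was not called (0.30 ± 0.21). Against shares of 11.6% higher and 12.1% lower over all tested genes, 6 of 10 genes of the opposite phase were higher, Hlf (2.48 ± 0.25), Dbp (1.98 ± 0.56), Tef (1.68 ± 0.31), Per2 (1.63 ± 0.22), Nr1d2 (1.56 ± 0.52) and Cry2 (1.18 ± 0.27), and Bhlhe40 was lower (-1.49 ± 0.21). Within replicates 1 and 2 Dbp read 3.56 ± 0.39 and Nr1d2 2.73 ± 0.23, both called. Within replicates 3 and 4 both read 0.40 (SE 0.32 and 0.28) and neither was called. Without replicate 2 labelled BALB-RAG after OVA both lost their call (adjusted p = 0.0512 and 0.0705, limma). Per2 was called in each set (1.75 ± 0.24 and 1.51 ± 0.28). Among the regulators Rora (0.94 ± 0.13), Huwe1 (0.71 ± 0.24) and Csnk1e (0.37 ± 0.11) were higher and Timeless (-0.61 ± 0.16) was lower. Against the same shares of 11.6% higher and 12.1% lower, 5 of 11 output genes were higher and 2 lower. Of 12 glucocorticoid and fasting genes 6 were higher and 0 lower. Of the cytokine signals linked to Nfil3, 4 of 8 were lower (12.1% of all tested genes), among them Irf4, at least 4.72-fold with all 4 arrays labelled BALB-RAG under background, and Id2 (-1.12 ± 0.18). Cell markers differed widely in this comparison. On the arrays labelled BALB-RAG 6 of 6 macrophage genes were called lower (median -2.48), 7 of 8 T cell genes (-1.86), 6 of 7 B cell genes (-2.29) and 2 of 3 NK cell genes (-2.86), while 3 of 3 heart muscle (2.96) and 2 of 2 adipose genes (3.78) were called higher. Their part in the values of the 5 clock genes was not tested.

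Replicates 3 and 4 were compared with replicates 1 and 2 over all groups, with group means in the fit. Clock was higher in replicates 3 and 4 (0.57 ± 0.10, SE, n = 8 arrays per set, adjusted p = 0.000357, limma) and Nfil3 lower (-0.56 ± 0.20, 0.0414). Arntl (0.31 ± 0.24, adjusted p = 0.339, limma), Npas2 (-0.30 ± 0.33, 0.506) and Cry1 (-0.01 ± 0.14, 0.947) were not called. With 2 of 5 called where 38.1% of all tested genes were called, the share was near the background. The Nfil3 call was lost in 9 of the 16 fits that left out an array, and Clock kept its call in 16 of 16. Group by group, replicates 3 and 4 minus replicates 1 and 2 gave 0.69, 0.26, 0.79 and 0.56 for Clock in BALB/c after PBS and OVA and BALB-RAG after PBS and OVA. For Npas2 the same order gave 0.13, -2.07, 0.36 and 0.39, for Arntl 0.67, -0.74, 0.58 and 0.73, and for Cry1 0.02, -0.58, 0.19 and 0.31. BALB/c after OVA was the group in which those 3 genes had the opposite sign. Nfil3 gave -0.25, -1.54, -0.72 and 0.28, and without replicates 3 and 4 of BALB/c after OVA its pooled difference was -0.23 ± 0.16 (adjusted p = 0.281, limma). With those arrays left out Arntl was called higher in replicates 3 and 4 (0.66 ± 0.23, adjusted p = 0.0439, limma).

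Likeness of pattern was measured by the Pearson correlation of log2 values over the 16 arrays, beside the correlation of deviations from group means. The arrays share groups and sets, so both are descriptions. Dbp had the lowest correlation with Arntl of all tested genes (-0.931 over 16 arrays, -0.743 for deviations), followed by Actg2 (-0.875), Nr1d1 (-0.865 and -0.661), Peli2 (-0.856), Celsr1 (-0.85), Per3 (-0.838), Nr1d2 (-0.827 and -0.309) and Frg1 (-0.82). The clock genes Dbp, Nr1d1, Per3 and Nr1d2 were thus 4 of the 8 lowest. The highest were Slc5a3 (0.924 and 0.693), Hspa4l (0.899), Hsp90aa1 (0.891), Dll1 (0.88), P4ha1 (0.874), Hsph1 (0.874), Stbd1 (0.868 and 0.775) and Dnajb1 (0.868). No clock gene was among these 8.

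Among the 5 themselves Arntl correlated at 0.854 with Npas2, at 0.805 with Nfil3, at 0.687 with Clock and at 0.57 with Cry1, over 16 arrays. For deviations from group means these were 0.725, 0.34, 0.65 and 0.349. Nfil3 and Clock were the least alike, at 0.194 and -0.389. Npas2 was most like Grp (0.873), Sema4c (0.868) and Arntl (0.854), and Nfil3 most like Dnaja1 (0.917), Disp2 (0.905) and Snx1 (0.904). Clock was most like Brwd1 (0.925), Ptgs2 (0.907) and Mfsd6 (0.884), and Cry1 most like Jun (0.881), Epha2 (0.868) and Ndel1 (0.863). Of all tested genes Nfil3 was least like Nr1d2 (-0.944 over 16 arrays, -0.912 for deviations) and Npas2 least like Nr1d1 (-0.91 and -0.895). Clock had weaker relations to both, -0.24 with Nr1d2 and -0.39 with Nr1d1.

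**Figure D4:**
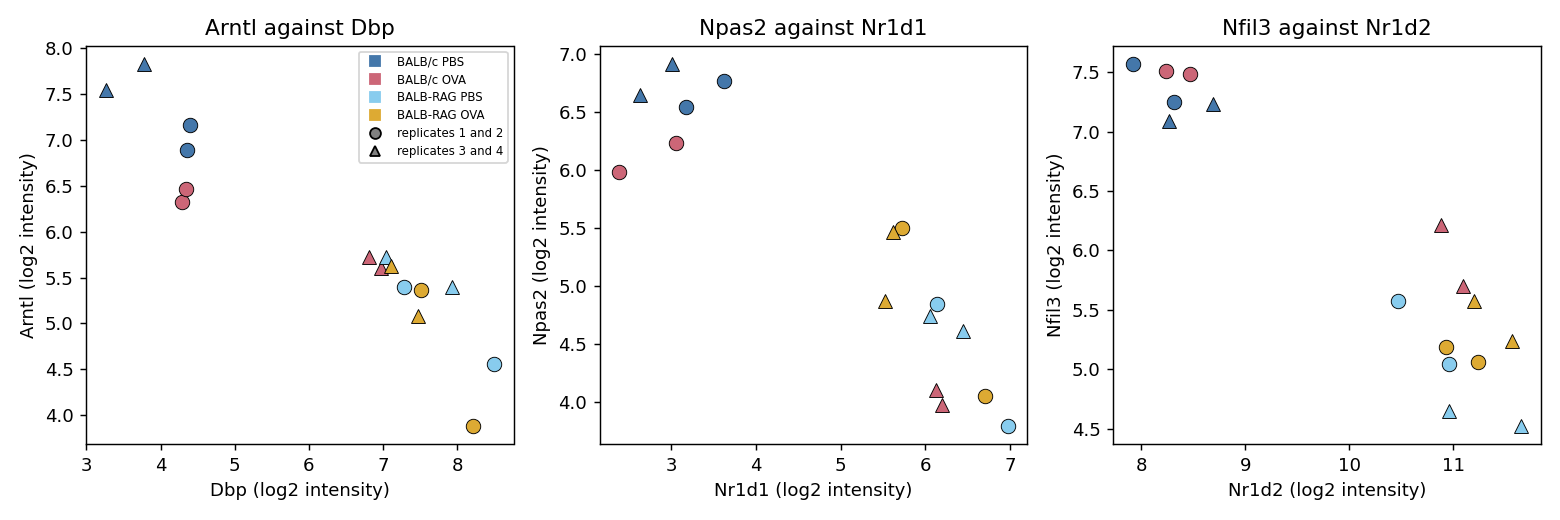
Log2 intensity of Arntl against Dbp, Npas2 against Nr1d1 and Nfil3 against Nr1d2, 1 point per array; colours are the 4 groups, circles replicates 1 and 2, triangles replicates 3 and 4. Each pair runs from high on the vertical axis in BALB/c after PBS to low on the arrays labelled BALB-RAG, and replicates 3 and 4 of BALB/c after OVA lie near the latter on the horizontal axis (Dbp 6.97 and 6.81).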

How the data were processed

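Per the submitters' processing notes the authors used GCRMA, which corrects background and normalises by quantiles (version not given in the sources used here). As deposited, the values are linear intensity (2.32 to 35181), from cRNA made of 6 µg total RNA per the labels. Log2 was taken, with no further normalisation. The labels of the 45101 rows do not belong to the values beside them in the stretches used, so 14300 labels were moved by fixed shifts: 64 rows above, 47 rows below and 16168 rows below. The rule that chose the genes gave the second as 47 rows above. It was turned because probe sets of the same gene within that stretch then correlated at a median of 0.618 (637 pairs), against 0.027 (440 pairs) above and 0.129 (437 pairs) as deposited; Arntl and Npas2 rest on it. For all 8 probe sets of the 5 genes the shift used ranked 1 among the 400 to 601 offsets scored around it. All names depend on this step, which no source used here describes.

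Symbols came from the platform annotation, and 13146 realigned labels had 1 symbol; RefSeq (GRCm38.p6) changed 0. The probe set with the highest mean stood for a gene. Fits used limma 3.58.1 (R 4.3.3) and had 4 group means over 16 arrays (12 residual degrees of freedom, 11 for the replicate sets), and called at an adjusted p of 0.05. The fit was tested on simulated arrays with independent values and no difference between the replicate sets, so that test does not cover the split seen here. The labels do not state whether replicates are separate animals; the p-values then reflect only the spread of these arrays, which may be technical, and 4 per group limit the precision. Same-numbered arrays correlated over 0.1 in every pair of the groups compared, except 1 pair between the groups labelled BALB-RAG; since arrays of the same set with other numbers were as alike, the pairing reflects the sets. Genes named were all 5 members, up to 6 called genes with the smallest p of each other clock list, up to 3 of other lists, and the genes most like each member (8 highest and 8 lowest for Arntl, 3 highest for the others). The members and lists were chosen with earlier results of these data known. Alternatives covered filters, normalisation, probe sets, the block, the sets and each array left out.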

Additional observations from a re-analysis of the deposited data

Results flagged for a closer look

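The response of Cry1 to OVA differed between the lines by a test of the difference itself: it was 1.67 higher in log2 on the arrays labelled BALB-RAG (SE 0.27, n = 4 per group, adjusted p = 0.00127, limma), where Cry1 went from 7.60 to 8.14, and from 8.68 to 7.55 in BALB/c. It was called in 16 of 16 fits that left out an array, between 1.56 and 1.85. In none of the 20 sets of 4 values (5 genes in 4 groups) was an array far from the other 3 by Dixon's test; chance alone gives about 1 in 20.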

How the results depend on the processing

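Of 845 values of the 5 genes under the alternatives, 741 kept their direction and side of the threshold, 50 lost a call, 22 gained one and 32 changed sign; of the 368 that belong to called differences 315, 50, 0 and 3 did so. Counts of members called that moved by over 1.5 times were as follows. OVA against PBS in BALB/c gave 3, but 1 in replicates 1 and 2, 5 in replicates 3 and 4, 1 without replicates 3 and 4 of BALB/c after OVA together and 1 with the second stretch 47 rows above, the last 2 chosen after seeing the data; leaving out each array gave 1 to 3. The difference of the responses gave 1, but 2 after repeated quantile normalisation, median centring, a mean of probe sets or the replicate block, 3 with a term for the sets, 4 in replicates 3 and 4 and 1 to 3 without an array. The lines after PBS gave 4, but 2 in replicates 1 and 2 or 47 rows above. After OVA they gave 3, but 1 in replicates 3 and 4 or with only the 2 groups fitted, and 1 to 3 without an array. The sets gave 2, but 1 without a filter, after quantile normalisation or median centring, or without group terms, and 1 to 2 without an array. With the replicate block the difference of responses of Clock was 0.64 (adjusted p = 0.0489, limma), and the block changed no call of a member beyond those named for Clock.

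Signs changed as follows, none called except Npas2 after OVA in replicates 3 and 4 (1.13). With 47 rows above, where Arntl and Npas2 take the values of other rows, OVA against PBS in BALB/c gave Arntl 0.78 and Npas2 0.05, the arrays labelled BALB-RAG gave Npas2 -0.74, the difference of responses Arntl -0.84 and Npas2 -0.79, and the lines Npas2 1.61 after PBS and 0.82 after OVA. In replicates 1 and 2, Nfil3 gave 0.09 in BALB/c, -0.18 on the arrays labelled BALB-RAG and -0.27 in the difference, and Clock 0.09 on those arrays and -0.05 between the lines after OVA. Without BALB/c OVA replicates 3 and 4, Nfil3 gave 0.21 in BALB/c, and between the sets Npas2 gave 0.29 and Cry1 0.17. Between the sets Cry1 gave 0.02 after quantile normalisation, 0.05 after median centring and -0.11 to 0.06 without each array. Leaving out each array also gave Arntl -0.52 to 0.09 and Clock -0.17 to 0.16 on the arrays labelled BALB-RAG, and, between the lines after OVA, Npas2 -0.47 to 0.29 and Clock -0.03 to 0.30. The cause was not tested.

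Counts over all genes called in BALB/c were 1128, and 1764 with the block, 1820 with a term for the sets and 547 in replicates 3 and 4. On the arrays labelled BALB-RAG they were 12, and 41, 67 and 5, with 26 after quantile normalisation, 21 after median centring, 24 for a mean of probe sets, 3 in replicates 1 and 2, 5 with only the 2 groups fitted, 19 without replicates 3 and 4 of BALB/c after OVA, and, without an array, 42 (replicate 2 after OVA), 24 (BALB/c OVA replicate 3), 7 (replicates 1 or 3 after OVA) or 6 (replicate 4 after OVA or 1 after PBS). For the difference they were 618, and 1152, 1214 and 212; for the lines after PBS 284, and 609, 635 and 52, with 142 for the 2 groups, 174 without BALB-RAG PBS replicate 1 and 184 and 185 without BALB/c PBS replicates 1 and 2; for the lines after OVA 1729, and 693 in replicates 3 and 4; for the sets 2770, and 1778 without group terms. Arrays with Arntl or Npas2 near log2 4 are at background, so their lowest values are upper limits.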
